A study of Drosophila melanogaster with 3 samples.

Results

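The genes described here encode translation initiation factors and aminoacyl-tRNA synthetases of Drosophila melanogaster, chosen by symbol: names that begin with eIF and a digit, and names built from an amino acid abbreviation and RS, with or without -m for the mitochondrial enzyme. This gave 77 of the 13968 annotated protein-coding genes, 44 for initiation factors and 33 for synthetases. The symbols alone decide which genes belong, but the families were proposed with earlier results of these data known. ChIP-seq, the sequencing of DNA recovered by chromatin immunoprecipitation, had been used to map the DM-domain transcription factor dmrt11E in whole embryos of both sexes. Their age of 2 to 10 h is that of the source label, since the separate age field cannot be read as an embryo age. The embryos came from 1 transgenic line that stably carries dmrt11E with green fluorescent protein at the C-terminus (dmrt11E-eGFP), and the antibody recognised the fluorescent protein. There was 1 group of 3 biological replicates, 1 control served all peak calls, and no immunoprecipitation from embryos without the tag was analysed here. A peak at one of these genes is therefore a peak of the tagged line, in a mixture of all embryonic tissues.

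Initiation factors bring the small ribosomal subunit, the initiator tRNA and the capped messenger RNA together and then let the large subunit join. Aminoacyl-tRNA synthetases charge each tRNA with its amino acid, in the cytosol or, for a separate set of nuclear-encoded enzymes, in mitochondria. Many genes of both families, though not every one that the symbols take in, are housekeeping genes that growing cells need. Housekeeping promoters of the fly are known for elements such as the DNA replication-related element (DRE) and Motif 1.

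Each gene was scored by the peak summits that lie within 500 bp of any of its annotated transcription start sites (TSSs). A summit from the authors' 6706 reproducible peaks, which met a limit on the irreproducible discovery rate (IDR), is called an IDR promoter summit. The pooled list and each replicate list hold 30000 peaks, so a summit there is weaker evidence. Peaks were ranked within each list by the authors' signal value, 1 being the highest, because the scale of that value differs between lists.

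The windows below show what the DNA looks like at the members' summits. Each is 101 bases centred on the IDR summit, taken from the RefSeq copy of the dm6 assembly and printed 5′ to 3′ on the strand of the named gene. Capitals mark a DRE, TATCGATA, and no other searched motif is present. The first 4, from the highest-ranked member eIF4EHP and from synthetase genes, are made mostly of A and T. The last 2, of eIF1 and eIF3h, are shown for contrast.

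eIF4EHP, chr3R:24109146-24109246, minus strand: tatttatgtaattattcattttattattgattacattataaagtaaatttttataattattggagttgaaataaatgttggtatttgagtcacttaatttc

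IleRS, chr3L:22288419-22288519, plus strand: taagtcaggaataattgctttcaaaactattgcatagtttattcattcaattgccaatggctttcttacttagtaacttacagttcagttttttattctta

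GluProRS, chr3R:23958475-23958575, minus strand: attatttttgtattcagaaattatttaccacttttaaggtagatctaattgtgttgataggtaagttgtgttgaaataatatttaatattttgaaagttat

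ProRS-m, chr3L:2651915-2652015, minus strand: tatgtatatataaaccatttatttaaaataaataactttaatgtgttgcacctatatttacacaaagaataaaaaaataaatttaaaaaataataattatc

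eIF1, chr3L:3222979-3223079, plus strand: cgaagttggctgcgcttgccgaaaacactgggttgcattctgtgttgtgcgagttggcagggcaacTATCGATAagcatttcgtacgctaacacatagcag

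eIF3h, chr2L:5052446-5052546, minus strand: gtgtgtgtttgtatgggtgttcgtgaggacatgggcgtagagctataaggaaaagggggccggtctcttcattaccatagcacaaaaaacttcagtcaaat

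The share of A and T in these windows was 83.2% for eIF4EHP, 72.3% for IleRS, 79.2% for GluProRS, 86.1% for ProRS-m, 49.5% for eIF1 and 54.5% for eIF3h.

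Of the 77 genes, 31 had an IDR promoter summit, which is 40.3% (exact 95% binomial interval 29.2 to 52.1, counting error only). Over all protein-coding genes the share was 23.8%, or 3323 genes. A pooled promoter summit was present at 57 of the 77 genes, 74.0%, against 51.6% of all protein-coding genes. Among genes with a pooled promoter summit, 54.4% of these members and 46.1% of all protein-coding genes also had an IDR one. The members' median IDR rank was 3427 against 3010 for all 3323 genes. In the top 1000 lay 7 of the 31 members and 604 of the 3323 genes. In the 3353 peaks of higher signal lay 14 of the 31 and 1838 of the 3323.

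The 3 replicates gave almost the same count. When each replicate list was restricted to its 6706 highest peaks, 32 members had a promoter summit in replicate 1, 31 in replicate 2 and 30 in replicate 3, a mean of 31.0 ± 1.0 (SD, n = 3). The shares were 41.6%, 40.3% and 39.0%, beside 23.9%, 24.0% and 23.4% of all protein-coding genes in replicates 1, 2 and 3. The members' share exceeded that of all genes by 16.5 ± 1.06 percentage points (SD, n = 3). The excess was smaller under stricter rules: 10.1 points when every replicate had to hold the peak among its 6706 highest, and 5.02 points in the 3353 IDR peaks of higher signal. These rules keep fewer IDR peaks, 4643 and 3353 of the 6706, so the share of all genes falls too. With 1 group there was no contrast to test. The excess is given as a description against the background share.

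Other gene families of the protein synthesis and degradation machinery lay on both sides of this value. Cytosolic ribosomal protein genes had an IDR promoter summit at 74 of 93 genes, 79.6%, mitochondrial ribosomal protein genes at 38 of 73, 52.1%, and proteasome subunit genes at 12 of 48, 25%. The synthetases had one at 16 of 33 genes, 48.5% (exact 95% interval 30.8 to 66.5), and the initiation factors at 15 of 44, 34.1% (20.5 to 49.9). These 2 intervals overlap. In the replicates the count was 15 synthetase genes each time, and 17, 16 and 15 initiation factor genes.

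**Figure D1:**
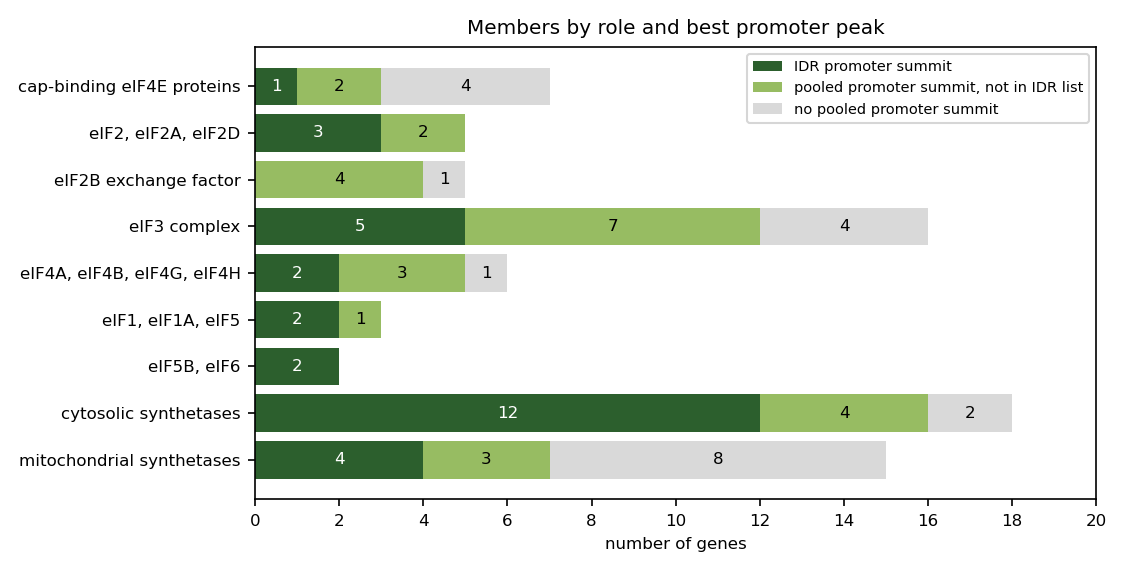
Number of genes (x axis) in each functional group (y axis), divided by the best promoter summit of each gene: in the IDR list, in the pooled list but not the IDR list, or in neither. Cytosolic synthetases had IDR promoter summits at 12 of 18 genes and mitochondrial synthetases at 4 of 15, while none of the 5 eIF2B genes had one.

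Among initiation factors, the eIF4E group of cap-binding proteins contained both the highest-ranked gene of all 77 and the largest number of initiation factor genes without a summit in any list. eIF4EHP (FBgn0053100), a cap-binding protein known as a translational repressor of embryonic messages, had the peak chr3R:24108934-24109431 at rank 30 of the IDR list, and ranked 51, 34 and 22 in replicates 1, 2 and 3. All 3 replicates placed it above every other member. Its summit lay 236 bp upstream of the TSS and also within reach of CG18428, which is transcribed the other way and has the nearer start. eIF4E1, the main cap-binding factor, had only a pooled summit, at rank 8168, and so had eIF4E6, at rank 16202. eIF4E3, eIF4E4, eIF4E5 and eIF4E7 had no promoter summit in any list.

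Of the 3 factors that choose the start codon, 2 had an IDR promoter summit, as did both factors of subunit joining, eIF5B and eIF6, against 23.8% of all protein-coding genes. The highest-ranked summits of eIF1 and eIF5 are shared with protein-coding neighbours. That of eIF6 lies 122 bp from its TSS and 93 bp from the start of a noncoding RNA gene, asRNA:CR45928. eIF6 (FBgn0034915), which keeps free large subunits from joining too early, had rank 344 in the IDR list and ranks 253, 330 and 457 in the replicates. eIF5B (FBgn0026259), the GTPase of subunit joining, ranked 942, with replicate ranks of 1111, 1039 and 910. The SD of the replicate ranks on the log2 scale was 0.15 for eIF5B and 0.43 for eIF6, beside a median of 0.39 over the members. eIF1 (FBgn0035423), which guards the accuracy of start codon choice, ranked 846, with replicate ranks of 660, 950 and 870. This summit lay 312 bp upstream and nearer to the start of RpL28, a gene for a large-subunit ribosomal protein. eIF1 had 2 IDR promoter summits, and the one nearest its TSS, at 108 bp, ranked 2953. eIF5 (FBgn0030719), which activates GTP hydrolysis on eIF2, ranked 5273. Its replicate ranks of 13892, 4615 and 3612 gave the widest spread of any initiation factor, an SD of 1.04 on the log2 scale, and replicate 1 was the low one. The eIF5 summit is shared with exd, the gene for a homeodomain partner of Hox proteins. eIF1A had a pooled summit at rank 11042.

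Of the 5 genes for eIF2 and delivery of the initiator tRNA, 3 had an IDR promoter summit (exact 95% interval 14.7 to 94.7%). The share was 23.8% of all protein-coding genes. This interval overlaps that of the exchange factor eIF2B given below, and a difference was not tested. eIF2 carries the initiator tRNA to the ribosome, eIF2A and eIF2D are alternative carriers, and eIF2B reloads eIF2 with GTP. eIF2A (FBgn0037135) ranked 3419, with replicate ranks of 2850, 4013 and 3899. eIF2D (FBgn0041588) ranked 3929, with replicate ranks of 4908, 4066 and 3832. These alternative carriers thus had mid-list peaks in every replicate. eIF2beta (FBgn0004926) was near the end of the IDR list at 5678 and ranked 6461, 3567 and 9360 in the replicates, which puts replicate 3 outside the 6706 highest peaks. eIF2gamma and eIF2alpha had pooled summits only, at ranks 8230 and 11835. None of the 5 eIF2B genes had an IDR promoter summit (exact 95% interval of the share 0 to 52.2%). eIF2Bdelta, eIF2Bepsilon, eIF2Bbeta and eIF2Bgamma had pooled summits at ranks from 10865 to 25235.

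eIF2Balpha, the remaining subunit gene, had no pooled summit but high ranks in 2 replicates. It ranked 3485 in replicate 1 and 1760 in replicate 2, with the summits 82 and 39 bp from the TSS. In replicate 3 the nearest summit was 2621 bp away, and in the pooled list 31516 bp away. It was singled out after its values were seen. Of the 59 members with promoter summits in at least 2 replicates, 4 had none in the pooled list, 6.78%, against 6.1% of such protein-coding genes in all. The 4 were eIF2Balpha, AspRS-m, GlnRS and LeuRS, and the members' share is close to that of all genes.

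eIF3, the largest initiation factor, holds the small subunit and the messenger RNA together. IDR promoter summits were present at 5 of its 16 genes, 31.2% (exact interval 11.0 to 58.7), against 23.8% of all protein-coding genes. The interval includes that background share. Pooled summits were present at 7 more, which makes 12 of 16 genes, against 51.6% of all protein-coding genes. eIF3c (FBgn0034258), a core subunit, was the highest at rank 1028, with replicate ranks of 1685, 1122 and 888. eIF3h (FBgn0022023) ranked 2050, with replicate ranks of 2898, 2018 and 2323. Its summit lay 284 bp downstream of the nearest TSS of the gene, the largest downstream distance among the members. The next 2 subunits lay close together in the list. eIF3m (FBgn0033902) ranked 4102, with replicate ranks of 5357, 3947 and 4122. eIF3a (FBgn0037249), the scaffold of the complex, ranked 4359, with replicate ranks of 3179, 3089 and 8682, so replicate 3 stood apart from the others. eIF3d1 ranked 5627. eIF3l, eIF3b, eIF3k, eIF3f1, eIF3i, eIF3e and eIF3j had pooled ranks from 7883 to 27469. eIF3f2 had a summit in replicate 2 only, at rank 19787, and eIF3d2, eIF3g1 and eIF3g2 had none in any list.

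The eIF4 factors that unwind the 5′ end of the messenger RNA and bridge it to the ribosome were found near the end of the IDR list. eIF4A (FBgn0001942), the helicase, ranked 4918, with replicate ranks of 4132, 5057 and 4564. eIF4G1 (FBgn0023213), the scaffold that binds cap-binding protein and helicase, lies on chromosome 4 and ranked 5639, with replicate ranks of 4283, 7003 and 6079. eIF4H1, eIF4B and eIF4G2 had pooled summits at ranks 7148, 8058 and 10907, and eIF4H2 had a summit in replicate 3 only, at rank 24788.

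Cytosolic synthetases were the functional group with the most IDR promoter summits, 12 of 18 genes or 66.7% (exact 95% interval 41.0 to 86.7), against 23.8% of all protein-coding genes. Enzymes were called cytosolic where the symbol lacks -m. Some such genes, GlyRS perhaps among them, may also encode the mitochondrial form, so the division follows the symbols. IleRS (FBgn0027086), the isoleucine enzyme, was the highest, with the peak chr3L:22288178-22288656 at rank 255 and replicate ranks of 490, 263 and 186. GluProRS (FBgn0005674), a single protein that charges both glutamate and proline tRNAs, ranked 740 at chr3R:23958321-23958739. Its replicate ranks of 802, 800 and 711 were among the tightest, with an SD of 0.10 on the log2 scale. ThrRS (FBgn0027081) ranked 986, with replicate ranks of 1513, 1130 and 815. SerRS (FBgn0031497) ranked 1007, with replicate ranks of 1496, 1035 and 873. IleRS, ThrRS and SerRS were each lowest in replicate 1 and highest in replicate 3, and their ranges of replicate ranks overlap with those of the genes next to them in the list except between eIF4EHP and IleRS.

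The other cytosolic enzymes followed further down. ValRS (FBgn0027079) ranked 2171, with replicate ranks of 2440, 1963 and 2337. Another IDR promoter summit of ValRS, 151 bp from its TSS, ranked 6645. AspRS (FBgn0002069) ranked 2346, with replicate ranks of 3417, 4306 and 1482, the widest spread of any synthetase measured in all 3 replicates (SD 0.81 on the log2 scale). AsnRS (FBgn0086443) ranked 2764, with replicate ranks of 2225, 4659 and 2456. In AspRS and AsnRS replicate 2 was the low sample. AlaRS (FBgn0027094) ranked 3973, with replicate ranks of 6872, 3577 and 4164. MetRS (FBgn0034401) ranked 4204, with replicate ranks of 3891, 4929 and 4073. GlyRS (FBgn0027088) ranked 4276, with replicate ranks of 5327, 4496 and 3942. These 3 genes, which charge alanine, methionine and glycine tRNAs, were not separated by their replicate ranks. TyrRS and ArgRS ranked 5231 and 5937. TrpRS, HisRS, LysRS and CysRS had pooled summits only, at ranks 7002, 11246, 14650 and 18533. GlnRS had promoter summits in all 3 replicates, at ranks 10824, 10637 and 8846, and LeuRS in replicates 1 and 2, at ranks 7961 and 7742, but neither had one in the pooled list. Every cytosolic synthetase gene thus had a promoter summit in at least 1 list.

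Mitochondrial synthetases were near the background. IDR promoter summits were found at 4 of 15 genes, 26.7% (exact 95% interval 7.79 to 55.1), close to the 23.8% of all protein-coding genes. No promoter summit in any list was found for 7 of the 15, and for 36.3% of all protein-coding genes. The interval overlaps that of the cytosolic enzymes, and the difference was not tested. ProRS-m (FBgn0027082), the mitochondrial proline enzyme, ranked 2432, with replicate ranks of 2833, 2353 and 2307. CysRS-m (FBgn0033900), the cysteine enzyme, ranked 3427, with replicate ranks of 4346, 2683 and 4566. Both were inside the 6706 highest peaks in every replicate. PheRS-m, TrpRS-m and ArgRS-m had pooled ranks of 8227, 17569 and 26855, and AspRS-m had summits in replicates 1 and 3, at ranks 8662 and 5397. No list held a promoter summit of AlaRS-m, AsnRS-m, GluRS-m, IleRS-m, MetRS-m, TyrRS-m or ValRS-m.

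**Figure D2:**
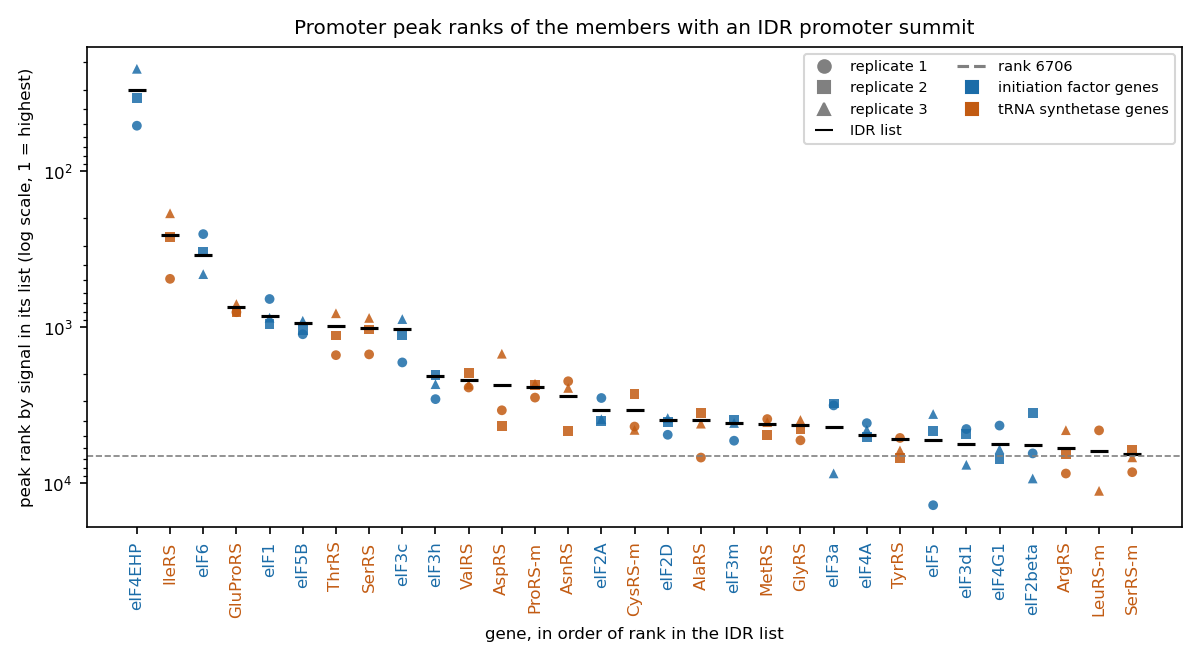
Rank by signal (y axis, log scale, 1 is the highest) of the best promoter peak of each of the 31 genes with an IDR promoter summit (x axis, in order of IDR rank). Circles, squares and triangles are replicates 1, 2 and 3, black bars are the IDR list, colours mark the 2 gene families, and the dashed line is rank 6706; eIF4EHP lies above all others in every replicate, and from eIF3h downward the replicate ranges overlap their neighbours except between eIF4A and TyrRS.

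Most neighbours in the order of the list could not be separated. Of the 30 pairs of neighbours in IDR rank, 4 had replicate ranges that did not overlap: eIF4EHP above IleRS, eIF6 above GluProRS, eIF3c above eIF3h, and eIF4A above TyrRS. The last pair was barely apart, with 5057 as the lowest place of eIF4A and 5142 as the highest of TyrRS. Such pairs were not counted over all genes. The remaining neighbours did not differ beyond their spread. The median SD of a member's rank over replicates was 0.39 on the log2 scale, and 0.39 also over the 3225 protein-coding genes with an IDR promoter summit and summits in all 3 replicates. Of the 31 members, 30 had promoter summits in all 3 replicates, and 21, or 67.7%, were among the 6706 highest peaks of each, against 71.7% of all genes with an IDR promoter summit.

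The genes at the limit of the IDR list show how gradual that limit is. The 3 lowest inside were ArgRS at 5937, LeuRS-m at 6256 and SerRS-m at 6515. ArgRS ranked 8698, 6563 and 4584 in the replicates. LeuRS-m ranked 4599 in replicate 1 and 11238 in replicate 3 and had no promoter summit in replicate 2. SerRS-m ranked 8528, 6161 and 6850. Just outside, TrpRS at pooled rank 7002 ranked 6482 and 6469 in replicates 1 and 2 with none in replicate 3. eIF4H1 at 7148 ranked 10142, 6417 and 9974, and eIF3l at 7883 ranked 6973, 19591 and 6570. The replicate values on the 2 sides of the limit overlapped. Of the 46 members without an IDR promoter summit, 10 were among the 6706 highest peaks of at least 1 replicate and 2 of at least 2. The same counts were not taken over all protein-coding genes, so these describe the members only. The count of members in no list at all was 14, or 18.2%, against 36.3% of all protein-coding genes.

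Promoter summits were not the only IDR peaks near these genes. Of the 46 members without an IDR promoter summit, 23, or 50%, had another IDR summit in the gene or within 5000 bp of it, against 40.4% of all protein-coding genes without an IDR promoter summit. The highest of these were at rank 52 near eIF2Bbeta and rank 121 near GlnRS. AlaRS, whose own promoter peak ranked 3973, had another IDR summit at rank 84 nearby. Such peaks can belong to neighbouring genes and were not assigned. These 3 genes were chosen after their values were seen.

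Summits stood just upstream of the start. The median position of the 31 best IDR promoter summits was -134 bp from the nearest TSS of the member, with quartiles of -203 and -90 bp. Over all 3323 protein-coding genes the median was -144 bp, with quartiles of -227 and -84 bp. Summits were upstream at 28 members, 90.3%, and at 89.9% of all genes. The 3 downstream ones were eIF3h, eIF3m and SerRS.

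**Figure D3:**
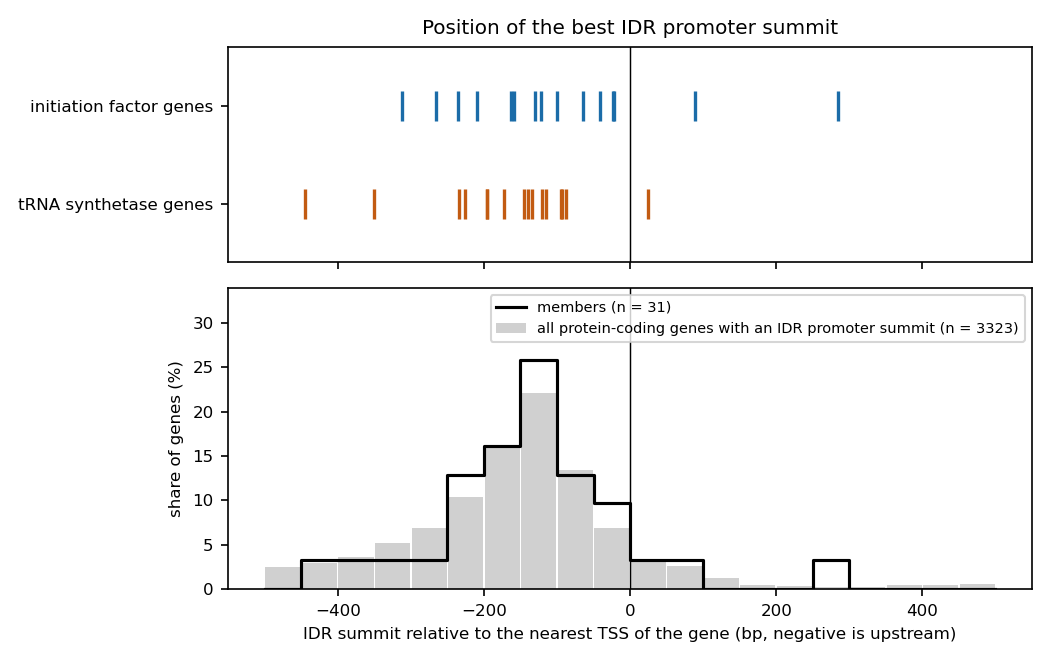
Position of the best IDR promoter summit relative to the nearest TSS of its gene (x axis, bp, negative is upstream). The upper panel has 1 tick per member in each family, and the lower panel gives the share of genes (y axis, %) in 50 bp bins for the 31 members (line) and all 3323 protein-coding genes with an IDR promoter summit (bars); both peak between 100 and 150 bp upstream.

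A summit between divergent genes cannot be assigned to one of them, and this bears on the synthetases most. Of the 16 synthetase genes with an IDR promoter summit, 14 shared it with another protein-coding gene, 87.5%, and at 12, or 75%, it lay between the starts of the synthetase and a gene transcribed away from it. Of the 15 initiation factor genes, 6 shared it, 40.0%, and 4 of these, or 26.7% of the 15, were divergent. Over all protein-coding genes 60.5% shared their summit and 49.1% were divergent. The partners had varied functions. They included Hem for IleRS, a subunit of an actin regulatory complex, AP-1sigma for GluProRS, a clathrin adaptor subunit, Kdm4B for ValRS, a histone demethylase, and Dhc64C for LeuRS-m, the heavy chain of cytoplasmic dynein. The member's own start was the nearest to the summit at 20 of 31 genes, 11 of them initiation factors. That count was not taken over all genes, so it describes the members only. The comparison of the families was made after the values were seen and was not tested.

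The base composition of the summit windows separated some initiation factors from the synthetases. The share of A and T in the 101 bp windows had a median of 72.3% over the 31 members, against 49.5% in windows of the same width centred 500 bp to either side. Over all 3323 genes these medians were 71.3% and 52.5%. All 16 synthetase windows were richer in A and T than their flanks, by a median of 26 percentage points and a range of 2.97 to 44.1. Among initiation factors the median difference was 7.43 points, and 5 of 15 windows were poorer in A and T than their flanks. These were eIF2A at -2.48 points, eIF3a at -9.41, eIF2beta at -10.9, eIF5B at -11.4 and eIF1 at -12.4. Of all 3323 genes, 87.7% had a summit window richer in A and T than its flanks.

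At least 1 of 7 motifs was present in 5 of the 31 summit windows, 16.1%, against 13.3% of all 3323. Of the motifs searched on both strands, at least 1 was in 4 of the 5 windows poorer in A and T than their flanks: a DRE in eIF1 and eIF3a, the Motif 1 core GGTCACAC in eIF2A, and the DM-domain core ACAATGT in eIF2beta. In the other 26 windows a motif was present in 1, an E-box CAGCTG at TyrRS. Over all 3323 genes these shares were 30.0% of 410 windows and 10.9% of 2913. The counts depend on the window: with 25 bp to either side they were 1 of 5 and 0 of 26, and with 100 bp 4 of 5 and 4 of 26. The DRE core was in 3.23%, 6.45% and 16.1% of the members' windows of 25, 50 and 100 bp to either side, and in 4.42%, 7.91% and 17.8% of all. The DM-domain core, part of the sequence that DM-domain proteins are known to bind, was thus found in 1 of 31 members' summit windows, 3.23%, against 1.59% of all. The GAGA repeat GAGAGAG and the Zelda motif CAGGTAG were in none of the 31, against 0.331% and 0.391% of all. These motifs contain G and C to differing degrees, so base composition moves with these counts, and its part in them was not tested.

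The promoters themselves, from 250 bases before to 50 after the TSS, did hold housekeeping motifs. The DRE was present in 17 of 77 promoters, 22.1%, against 8.94% of all 13967 protein-coding promoters. It was in 27.3% of initiation factor promoters and 15.2% of synthetase promoters. The shorter core ATCGAT, which every DRE contains, was in 37.7% of the members' promoters and 22.7% of all. It was in 47.7% of initiation factor promoters and in 24.2% of synthetase promoters, the latter close to the share of all. The Motif 1 core was in 11.7% and 7.52%, the DM-domain core in 6.49% and 4.55%, and the GAGA repeat in 2.6% and 6.19%. The Zelda motif was in no member's promoter and in 1.72% of all. Among members, the DRE was in 7 of 31 promoters with an IDR summit and 10 of 26 with a pooled summit only. It was in 0 of 20 with neither, 6 of which had a summit in a replicate. Over all genes it was in 14.6%, 13.7% and 3.42% of these classes, so 0 of 20 is near the share of all genes. The shorter core was in 3 of these 20, 15.0%, against 14.1% of that class over all genes. Within 300 bp of the summit, 13 of 31 members had a DRE, 41.9%, against 19.1% of all 3323 genes. Of these, 84.6% lay more than 50 bp from the summit, close to the 83.1% of all genes. Their median distance was 114.5 bp, against 108.0 bp over the 634 such genes in all.

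**Figure D4:**
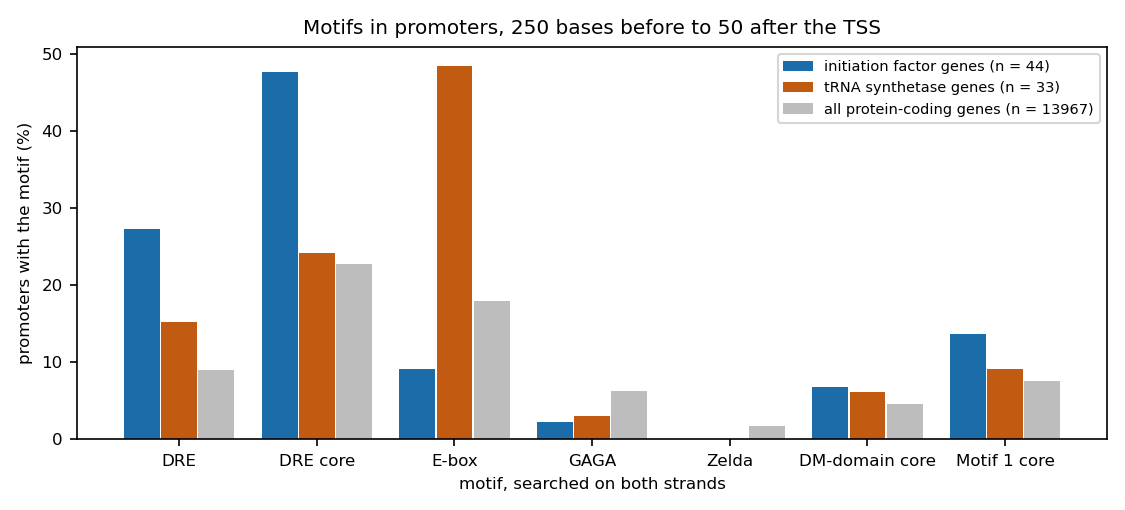
Share of promoters (y axis, %) that hold each of 7 motifs (x axis) among 44 initiation factor genes, 33 synthetase genes and all 13967 protein-coding genes with a promoter window. The E-box stands at 48.5% of synthetase and 9.09% of initiation factor promoters, and the DRE at 15.2% and 27.3%.

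The E-box CAGCTG divided the families. It was present in 16 of 33 synthetase promoters, 48.5%, in 4 of 44 initiation factor promoters, 9.09%, and in 17.9% of all promoters. Cytosolic and mitochondrial enzymes had it alike, at 9 of 18 and 7 of 15 genes. It was in 7 of the 16 synthetase promoters with an IDR promoter summit and in 9 of the 17 without one. Of the 4 initiation factor genes with it, 3 encode eIF2B subunits. The difference between the families was noticed in the data and was not tested.

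The distance of the promoter E-boxes from the start was taken for the synthetases only. In 13 of the 16 synthetase promoters the E-box nearest the TSS was within 100 bp of it. The promoter window searched is itself a short stretch around the TSS, which favours small distances. Without the same count over all genes, the value describes these 16 promoters only. In the 7 with an IDR promoter summit, the distance from the summit to the nearest promoter E-box ranged from 100.5 to 183.5 bp, with a median of 150.5 bp. Counting any E-box within 300 bp of the summit, 8 of the 16 synthetase genes with an IDR promoter summit had one. Over all genes with such a summit, 1139 of 3323 had one, 34.3%, and a difference was not tested. In the 8 synthetase genes the E-box lay at a median distance of 126.5 bp and as near as 33.5 bp. Over all 3323 genes the median was 136.5 bp, so the distance is close to that of genes in general. The windows below, from the same assembly and on the gene's strand, show 4 of these elements outside annotated UTRs with the centred E-box in capitals. The palindrome reads the same on both strands. TyrRS has another E-box in lower case beside the first, and ArgRS has a DRE beside it.

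IleRS E-box, chr3L:22288566-22288611, plus strand: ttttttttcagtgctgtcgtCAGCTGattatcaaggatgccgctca

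TyrRS E-box, chr3L:16419310-16419355, minus strand: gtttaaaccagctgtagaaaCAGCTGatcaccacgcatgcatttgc

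ArgRS E-box, chrX:15844167-15844212, minus strand: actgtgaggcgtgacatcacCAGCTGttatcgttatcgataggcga

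TrpRS-m E-box, chr3L:17849680-17849725, plus strand: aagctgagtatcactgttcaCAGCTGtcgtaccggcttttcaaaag

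IleRS, TyrRS and ArgRS had IDR promoter summits and TrpRS-m had only a pooled one. The TCT initiator, a pyrimidine-rich start element known from ribosomal protein genes, was searched as CTTTCT or CTTTTT within 10 bases of the TSS on the gene's strand. It was present at 2 of the 77 members, ThrRS and TyrRS, or 2.6%. The share was 1.95% of all protein-coding genes and 32.3% of cytosolic ribosomal protein genes.

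Other genes of translation, listed by role, also had IDR promoter summits. Of 38 such genes, 19 had one, 50%, against 23.8% of all protein-coding genes. These were 3 of 3 termination and recycling factors, 5 of 8 elongation factors, 7 of 13 regulators of eIF2 and eIF4E and partners of the cap, 2 of 8 mitochondrial translation factors, a share near that background, and 0 of 3 scaffolds of the multi-synthetase complex. The remaining 2 were both subunits of the cytosolic phenylalanine synthetase, whose symbols carry a prefix and so fall outside the naming rule. eEF1gamma, an elongation factor subunit, was the highest at rank 629, with replicate ranks of 371, 798 and 763. eRF3, the release factor GTPase, ranked 967, with replicate ranks of 1572, 970 and 756. eRF1, which recognises stop codons, ranked 1946, with replicate ranks of 2817, 2262 and 1740. Both release factors were lowest in replicate 1. Gcn2, the kinase that phosphorylates eIF2 under amino acid shortage, ranked 2177, with 1135 and 1753 in replicates 1 and 2 and no promoter summit in replicate 3. eEF2, the translocase, ranked 2197, with replicate ranks of 1351, 2221 and 2835.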

How the data were processed

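The authors called peaks for 3 single replicates and for the pool of all of them, with 1 control throughout, on dm6, per the file headers and the descriptions deposited with them. The sources used here give no aligner, peak caller, settings or read depth, so precision is given by the spread over replicates and by counts of genes. The signal value per peak, deposited by the authors, ranked peaks within a list, and their deposited −log10 q served only to describe the lists and 1 alternative (at least 2, which 9206, 15075 and 10842 peaks of replicates 1, 2 and 3 reach). The deposited summit offset gave each summit. The 6706 IDR peaks are the 6706 highest of the pooled list, so the IDR, pooled and replicate lists share reads. Replicate numbers came from the labels, which name 3 biological replicates and give chromatin sheared to 200 to 800 bp.

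Genes, TSSs and biotypes came from Ensembl release 115 (BDGP6.54, 18277 genes), and sequence from RefSeq's copy of that assembly. Promoter windows used the canonical TSS, which 1 protein-coding gene lacks. Genes, gene lists, roles and motifs were chosen with earlier results of these data known. Values in every replicate are given for the 12 highest genes of each family, the 3 just inside and outside the IDR list and the widest spread in each family, and for 5 related genes. Other members are named to account for all. Of 41 related symbols, 38 matched. Base composition, the motif counts by window width, motif distances, E-box counts, divergent promoters and summits found only in replicates were added after seeing the data. The assignment of summits to genes was tested on simulated peaks. Python 3.11.15, numpy 2.4.6, pandas 2.3.3, scipy 1.17.1 and matplotlib 3.10.9 were used.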

Additional observations from a re-analysis of the deposited data

How the results depend on the processing

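The members with an IDR promoter summit, 31, fell to 14 in the 3353 peaks of higher signal and otherwise ranged from 21 to 33. Their share above that of all protein-coding genes, 16.5 points, was 14.7 with a TSS window of 200 bp, 11.7 with only the nearest TSS of each summit, 5.02 in those 3353 peaks, 10.1 for peaks found in the top list of every replicate, and 11.5 to 12.5 when 1 replicate was left out and the other 2 had to support the peak. The last 2 settings also keep fewer IDR peaks, 4643 and 4896 to 5403 of 6706. The mean count over replicates, 31.0, was 14.7 with the 3353 highest peaks of each replicate and 47.0 with 2 times 6706. No value changed direction. The other alternatives moved no count of members with a summit beyond 1.5 times, the pooled count among them. The share of members' summits with the DRE core, 6.45%, was 3.23% within 25 bp and 16.1% within 100 bp. No paired analysis was possible because there is only 1 group. The lists give no read depth, so a gene without a summit is one not among the peaks kept, and a summit shared with a neighbour counts for both genes.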
